A study of Mus musculus with 4 samples.

Results

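Among the cells sorted from mouse thymus, 491 carried at least 5 unique molecular identifiers (UMIs) of Cd209d together with at least 1 of Mgl2. The same cells had no Xcr1 UMI, at most 1 Ccr7 UMI, under 30 UMIs of C1qa, C1qb and C1qc together and under 10 UMIs of 6 cell cycle genes (Mki67, Top2a, Birc5, Nusap1, Cenpf and Ube2c). They are called Cd209d Mgl2 dendritic cells, or members, below. They made up 491 of the 23549 cells with 1000 to 7000 detected genes and at most 10% mitochondrial UMIs in 3 libraries. The members were thus selected on the UMIs of the gate genes, so the levels of those genes describe the choice and are given with no test. The same holds for Cd209e, Cd200r1 and Cyp7b1, which were known to mark these cells in these data when the gate was drawn.

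The study sorted fluorescent thymic myeloid cells for droplet-based single-cell RNA sequencing in order to resolve thymic macrophages. MAFIA mice carry a Csf1r-driven EGFP with an NGFR/FKBP1A/TNFRSF6 fusion, and GFP+ cells were taken from 5-week-old animals. Cd11cYFP mice carry Itgax-Venus, and YFP+ cells were taken from 9-week-old animals. All mice were of the C57BL/6 strain, were killed with CO2 and received no other treatment named in the labels. The sort selected for the reporter, which sets which cells the libraries hold. The study's methods name a female MAFIA animal and male Cd11cYFP animals with 1 MAFIA sample and 2 Cd11cYFP samples, while the labels give 2 MAFIA libraries, and which of these came from the named animal is not given. Reporter, sex and age cannot be told apart, so levels were not tested between the reporters. MAFIA replicate 2 and Cd11cYFP replicates 1 and 2 are used here. MAFIA replicate 1, with a median of 3980.5 UMIs per cell against 15759 to 17493 in the other libraries, held 3 gated cells of 5493 (0.055%, exact 95% interval 0.011 to 0.16%, counting error only) and was left out.

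Dendritic cells (DCs) take up antigen and present it to T cells, and in the thymus they take part in the deletion of self-reactive thymocytes. Conventional DCs are divided into type 1, marked by Xcr1, and type 2, marked by Sirpa, while plasmacytoid DCs depend on the transcription factor Tcf4 and carry Siglech. The CD209 proteins are C-type lectins that bind glycans, and mouse has a cluster of them related to human DC-SIGN. Mgl2 encodes a lectin for galactose and N-acetylgalactosamine, Cd200r1 an inhibitory receptor for CD200, and Cyp7b1 a hydroxylase of oxysterols that takes part in making the ligand of GPR183.

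In the GRCm39 build, Cd209d lies on the minus strand at chr8:3921824-3928568, next to Cd209e at chr8:3897965-3904309. Cd209a lies on the same strand at chr8:3793397-3798984. Mgl2 is at chr11:70020954-70028376 on the plus strand, Cd200r1 at chr16:44586096-44615343 and Cyp7b1 at chr3:18117411-18297740 on the minus strand. Since the members carried RNA of 3 neighbouring Cd209 genes, the promoters of these genes are shown around the start of each gene, as RefSeq gives them on GRCm38.p6, on the gene's strand. They cover chr8:3878450-3878749 for Cd209d, chr8:3854237-3854536 for Cd209e and chr8:3748935-3749234 for Cd209a. Capitals mark the match, sought on both strands, to the composite element of ETS and IRF factors, which is GGAA, then any 2 bases, then GAAA. All matches shown lie on the strand opposite to the one printed.
Cd209d: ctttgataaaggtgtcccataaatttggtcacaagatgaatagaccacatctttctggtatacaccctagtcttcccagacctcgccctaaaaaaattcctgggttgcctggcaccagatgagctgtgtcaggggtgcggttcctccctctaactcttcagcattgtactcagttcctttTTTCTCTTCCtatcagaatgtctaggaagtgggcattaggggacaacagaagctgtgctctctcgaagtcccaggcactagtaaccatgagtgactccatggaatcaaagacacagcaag
Cd209e: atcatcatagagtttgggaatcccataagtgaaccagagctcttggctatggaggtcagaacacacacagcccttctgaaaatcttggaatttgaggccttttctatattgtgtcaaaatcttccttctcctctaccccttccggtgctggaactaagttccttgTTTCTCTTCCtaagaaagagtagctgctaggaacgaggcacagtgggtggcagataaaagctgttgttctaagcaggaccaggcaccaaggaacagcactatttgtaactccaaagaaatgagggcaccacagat
Cd209a: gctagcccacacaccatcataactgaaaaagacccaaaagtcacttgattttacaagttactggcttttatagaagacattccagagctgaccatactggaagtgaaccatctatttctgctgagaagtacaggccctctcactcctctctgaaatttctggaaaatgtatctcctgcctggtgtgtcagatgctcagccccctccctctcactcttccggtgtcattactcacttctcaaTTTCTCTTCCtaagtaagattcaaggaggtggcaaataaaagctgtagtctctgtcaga
The same letters, TTTCTCTTCC, stood 70 bases before the start in Cd209d, 85 bases before it in Cd209e and 9 bases before it in Cd209a. The element occurred in 892 of 32851 mouse promoters of this length (2.72%), and the window of Mgl2 did not hold it. The 3 genes are paralogs, and the match is a description of sequence only. Reads from near-identical stretches of paralogs can be lost or shared in counting, so differences in level among the Cd209 genes are uncertain.

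MAFIA replicate 2 held 217 members (3.49% of 6219 cells, with an exact 95% interval from 3.05 to 3.98%). Cd11cYFP replicate 1 held 84 (1.10% of 7646, from 0.877 to 1.36%) and Cd11cYFP replicate 2 held 190 (1.96% of 9684, from 1.70 to 2.26%). These shares averaged 2.18% ± 1.21 (SD, n = 3) of the sorted cells, and the intervals cover counting error only. Members were deeply sequenced, with a median of 18107 to 20527 UMIs per cell. No member could meet the gate of another population, since those gates excluded cells with Cd209d. No cell barcode was shared between the members of different libraries. They were compared with 380 Cd209a DCs (Cd209a at least 5 UMIs), 3159 Xcr1 DCs (Xcr1 at least 5 UMIs) and 2434 C1q macrophages (at least 100 C1q UMIs), all without Cd209d and with the same limits on Ccr7 and cell cycle genes. Monocytes and B cells from the same libraries served as background. Some Cd209a DCs also met the gate of monocytes or B cells. These were 7 of 67 in MAFIA replicate 2, 22 of 186 in Cd11cYFP replicate 1 and 8 of 127 in Cd11cYFP replicate 2.

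**Figure D1:**
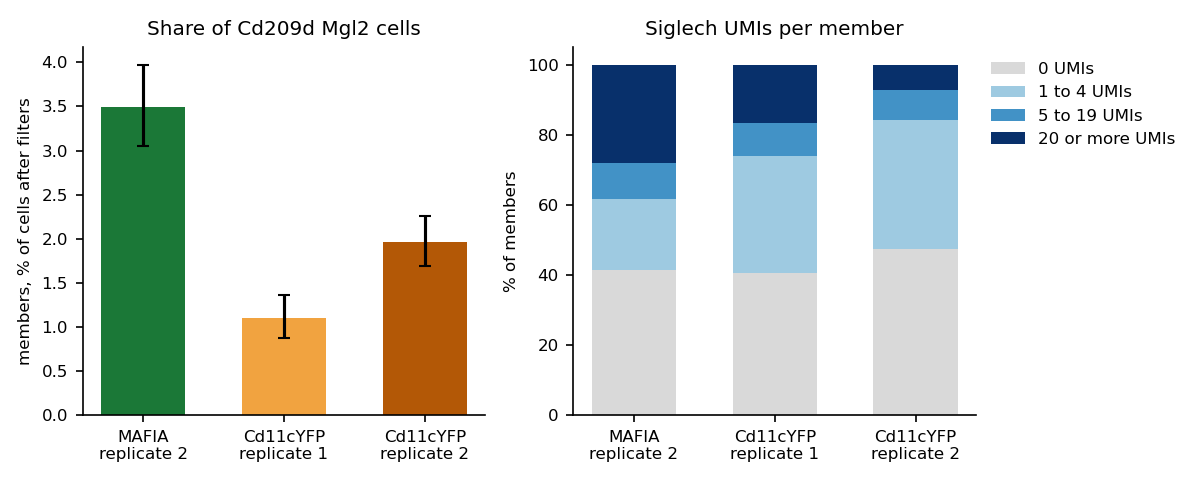
The left panel shows the members as a percentage of the cells after filters in each of 3 libraries, with exact 95% binomial intervals as bars. The right panel divides the members of each library by their Siglech UMIs. The share was 3.49% in the MAFIA library and 1.10 and 1.96% in the Cd11cYFP libraries, and members with 20 or more Siglech UMIs made up 28.1, 16.7 and 7.37% of the members in the same order.

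Levels are given below in CPM, the UMIs of a gene scaled to 1000000 UMIs of the summed cells of a library, always in the order MAFIA replicate 2, Cd11cYFP replicate 1 and Cd11cYFP replicate 2. Cd209d stood at 1871, 1475 and 1584 CPM in the members and was absent from the comparators by their gates. Mgl2 stood at 1162, 827 and 1177 CPM in the members and at 811, 247 and 505 CPM in Cd209a DCs. Mgl2 was thus shared with Cd209a DCs in all 3 libraries. Cd209a, which the member gate did not use, stood at 759, 1042 and 875 CPM in the members and at 761, 1034 and 1093 CPM in Cd209a DCs, so the ranges overlapped. Its levels in Xcr1 DCs were 1.48, 2.03 and 3.04 CPM.

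Cd209e stood at 290.4, 342 and 459.6 CPM in the members and at 6.03, 7.94 and 14.03 CPM in Cd209a DCs. Cd200r1 stood at 171, 199 and 176 CPM against 31.6, 18.9 and 25.05 CPM. Cyp7b1 stood at 120.3, 129.7 and 83.5 CPM against 1.51, 6.95 and 0 CPM. For each of these markers the lowest member library lay above the highest library of every comparator. In Xcr1 DCs and C1q macrophages, Cd209e and Cyp7b1 stayed under 1 CPM. When each cell was reduced to 3000 UMIs, 91.4% ± 3.35 (SD, n = 3) of members kept a Cd209d UMI, 42.2% ± 13.1 had one of Cd209e, 36.2% ± 0.71 one of Cd200r1 and 20.8% ± 6.09 one of Cyp7b1. Both Cd209d and Cd209a were seen in 68.6% ± 5.96 of members. In B cells, which should lack them, the shares at this depth were 0.12% ± 0.1 for Cd209e, 0.96% ± 0.22 for Cd200r1 and 0.12% ± 0.21 for Cyp7b1, and B cells had a median of 9445.5 to 11531 UMIs before reduction. At full depth Cd209e was seen in 66.2% ± 10.01 of members.

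**Figure D2:**
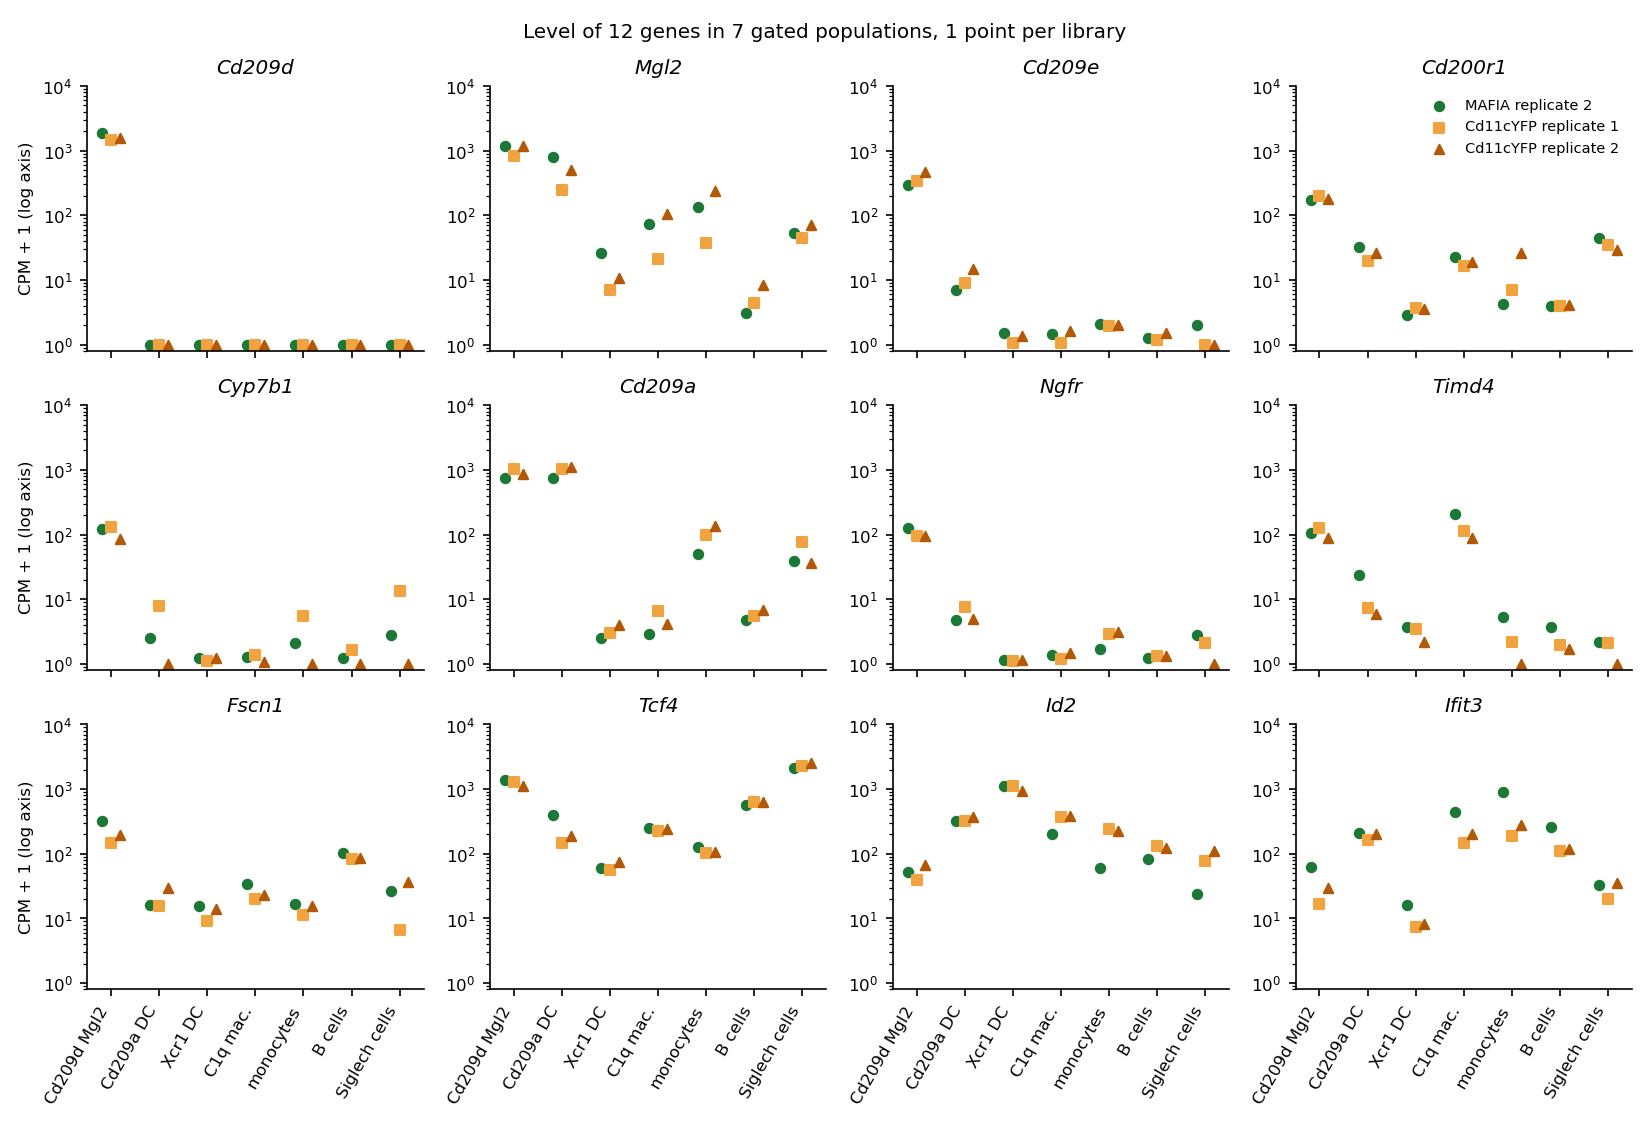
Level of 12 genes (panels) in 7 gated populations (horizontal axis), as CPM + 1 on a log axis, with 1 point per library and 3 libraries. Cd209d, Mgl2, Cd209e, Cd200r1 and Cyp7b1 chose or mark the members, Siglech cells are a reference population, and Ngfr was at 124, 95.1 and 95.5 CPM in the members but under 8 CPM in every other population.

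The members spanned a wide range of Cd209d, from 5 to 213 UMIs per cell, with medians of 19, 20 and 20 UMIs. Just outside the threshold, 98 cells with 3 or 4 Cd209d UMIs met every other criterion, and 60 members lay just inside it with 5 or 6. Cd209e stood at 43.6, 60.96 and 76.3 CPM just outside, at 77.6, 115 and 217 CPM just inside and at 492, 379 and 621 CPM in members with 50 or more Cd209d UMIs. Cyp7b1 stood at 27.1, 28.1 and 9.75 CPM, 42.5, 54.4 and 35.8 CPM and 201, 147 and 164 CPM in the same 3 groups of cells. Both markers were lower just outside than just inside in all 3 libraries. The top group had the highest level of both, except that Cd209e in Cd11cYFP replicate 1 and Cyp7b1 in the same library were higher at 20 to 49 or 7 to 19 Cd209d UMIs. Gpr183, the receptor that guides cells along oxysterol gradients, went from 131, 291 and 253 CPM just outside to 391, 466 and 418 CPM at the top. Siglech ran the other way, with 1961, 550.3 and 606 CPM just inside and 179.9, 31.8 and 142 CPM at the top. Depth per cell differed along the range, with a median of 15294, 19724 and 14739.5 UMIs just inside and 23230, 22911 and 19768 at the top.

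Most cells that missed the gate by a single criterion missed it on Cd209d or Mgl2. There were 340 cells with 1 to 4 Cd209d UMIs that met the rest, 207 that lacked only Mgl2 and 74 that failed only the cell cycle limit. Another 47 had more than 1 Ccr7 UMI, 45 had Xcr1 and 24 had 30 or more C1q UMIs. In all, 978 cells had at least 5 Cd209d UMIs, so the gate kept 491 of 978.

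**Figure D3:**
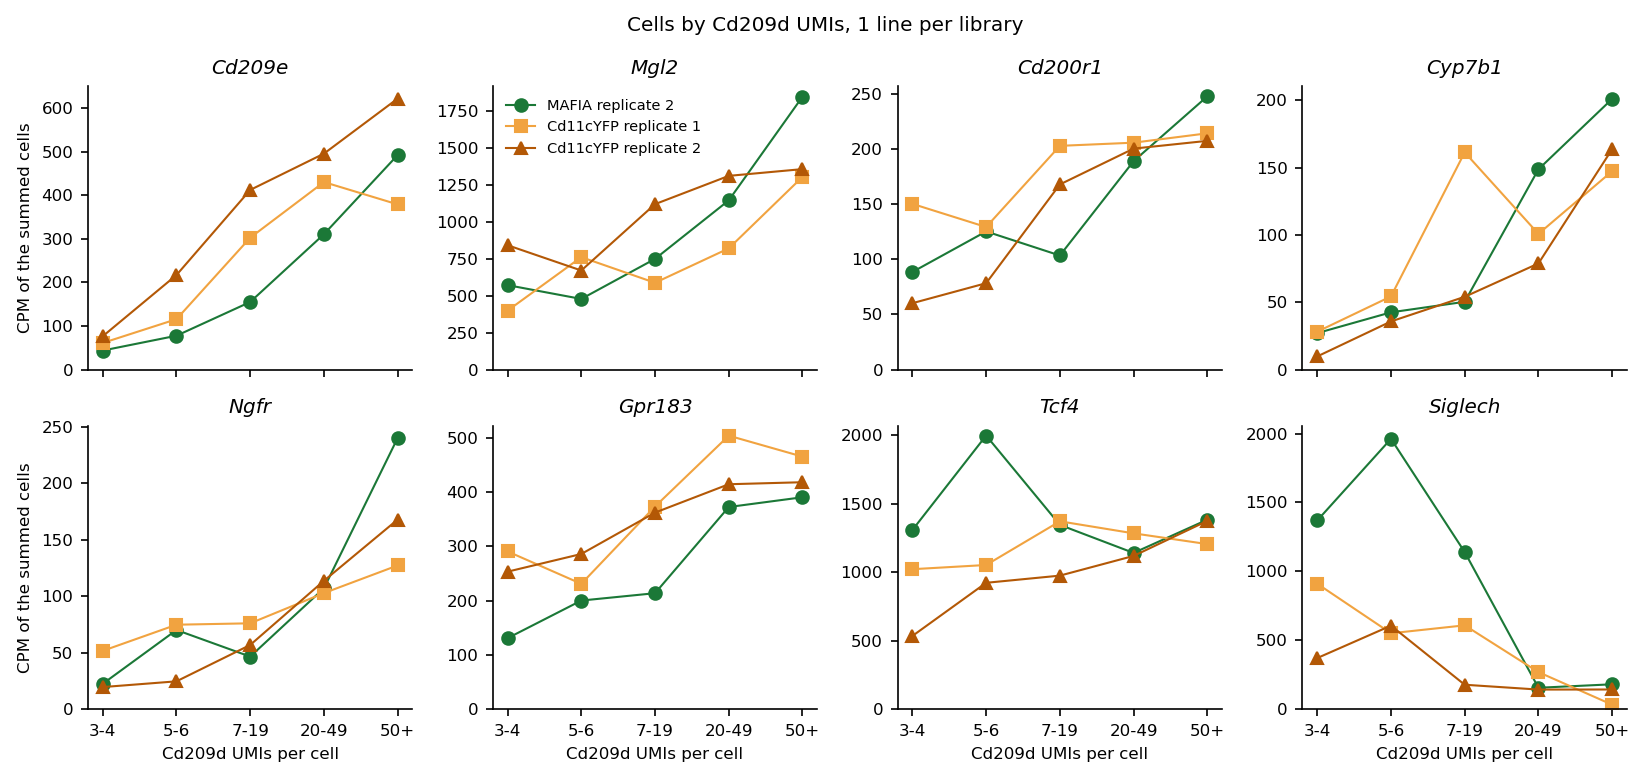
Levels of 8 genes (panels, CPM of the summed cells) in cells that met the other criteria, divided by Cd209d UMIs per cell, with 1 line per library. The bin of 3 to 4 UMIs lies outside the gate. Cd209e, Cyp7b1 and Ngfr were higher in the bin of 50 or more than in the bin of 5 to 6 in all 3 libraries, and Siglech was lower.

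The members were not uniform in plasmacytoid DC genes. Of the 491, 214 had no Siglech UMI, 142 had 1 to 4, 46 had 5 to 19 and 89 had 20 or more. The last group was unevenly spread over the libraries, with 61, 14 and 14 cells. In it Klk1 reached 1620.4, 1247 and 2508 CPM and Cox6a2 1630.4, 799.7 and 2356 CPM, while members without Siglech had 5.0005, 1.35 and 1.21 and 14.001, 10.8 and 17.002 CPM. Some genes of the other members were low there and some were not. Zbtb46, a transcription factor of conventional DCs, stood at 11.1, 4.76 and 0 CPM against 76.5, 57.98 and 67.4 CPM without Siglech. H2-Aa, a class II MHC chain, stood at 2594, 4603 and 3178 CPM against 14930.4, 14296 and 16626 CPM, and Mgl2 at 171, 276 and 276 CPM against 1433, 951 and 1333 CPM. Flt3 differed less and stood at 111, 138 and 69.1 CPM against 152, 158 and 192 CPM, and Clec9a, a receptor of type 1 DCs and their precursors, was higher, at 105, 80.9 and 69.1 against 4.5004, 4.05 and 8.501 CPM. Of the markers, Cd209e stood at 31.2, 267 and 89.8 CPM against 356, 329 and 387 CPM, Cd200r1 at 94.7, 143 and 69.1 against 163, 204 and 183 CPM and Cyp7b1 at 29.2, 4.76 and 34.5 against 114, 139 and 66.2 CPM. The 89 Siglech-rich cells, 18.1% of the members, thus had less Zbtb46 and H2-Aa and more Klk1, Cox6a2 and Clec9a than members without Siglech in all 3 libraries. Their median depth was 13922, 12986 and 9826 UMIs, against 22198, 22070.5 and 18177 in members without Siglech.

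The 46 members with 5 to 19 Siglech UMIs carried genes of both groups. Their Zbtb46 stood at 122, 139 and 95.5 CPM and their Cd209d at 3375, 1321 and 2453 CPM. Ly6c2, a surface protein gene of monocytes and plasmacytoid DCs, stood at 2649, 2797 and 801 CPM in these cells and at 54.005, 262 and 48.6 CPM in members without Siglech. Klk1, by contrast, was at 147, 51.4 and 0 CPM. H2-Aa stood at 3842, 3553 and 10157 CPM, below the members without Siglech in all 3 libraries. Their median depth was 20974, 17110 and 19558 UMIs. These bins hold 8 to 22 cells per library and are a description. Whether single droplets held more than 1 cell was not tested for these bins. A score against simulated doublets called 3, 3 and 5 members doublet-like in the 3 libraries.

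Tcf4 climbed with Siglech and was also present without it. Members without any Siglech UMI had 888, 1007 and 950.3 CPM of Tcf4 and those with 20 or more had 2193, 2085 and 2459.5 CPM. The reference Siglech cells, gated on at least 5 Siglech UMIs without Cd209d (426, 76 and 49 cells), had 2093, 2247 and 2500.3 CPM, while Cd209a DCs had 403, 149 and 190.3 CPM. Even the members without Siglech thus lay above every Cd209a DC library. At 3000 UMIs per cell, 89.8% ± 2.18 of members had a Tcf4 UMI against 40.9% ± 6.95 of Cd209a DCs. The share with a Siglech UMI was 32.3% ± 9.23 in members, 8.73% ± 7.01 in Cd209a DCs and 2.26% ± 0.96 in B cells. Without reduction it was 56.9% ± 3.72 in members.

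**Figure D4:**
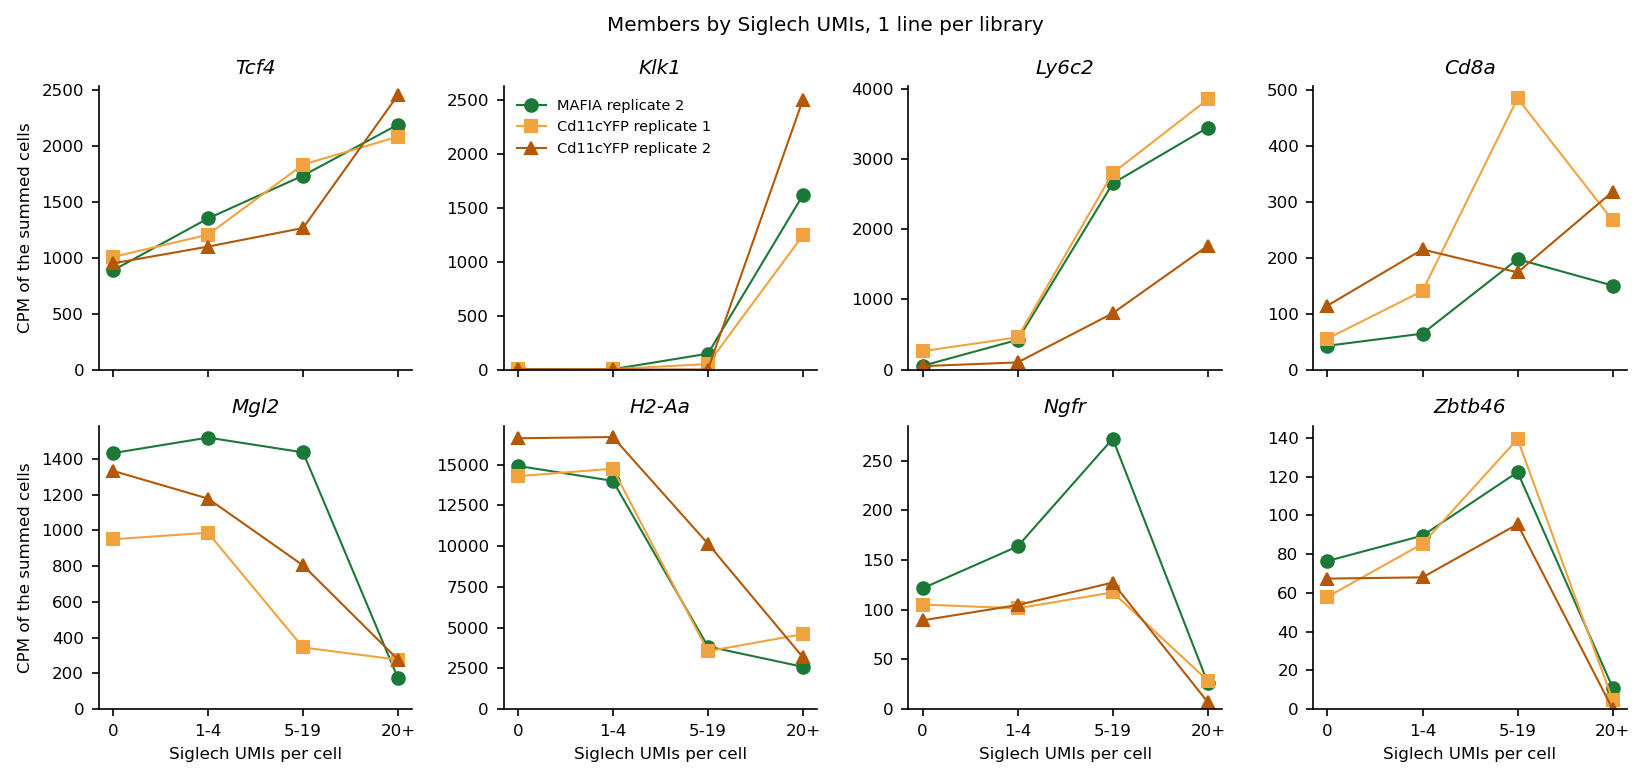
Levels of 8 genes (panels, CPM of the summed cells) in members divided by Siglech UMIs per cell, with 1 line per library. Tcf4 climbed across the 4 bins in every library, Klk1 was highest in the bin of 20 or more, and Zbtb46 was highest in the bin of 5 to 19 and lowest in the bin of 20 or more.

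The label was next checked against lineage markers over all members. Flt3, the growth factor receptor of DCs, stood at 148, 164 and 196 CPM and Zbtb46 at 68.9, 67.3 and 67.6 CPM. The macrophage marker Mertk, a receptor for apoptotic cells, stood at 2.07, 1.21 and 0.86 CPM. C1q macrophages had 219.5, 204 and 208 CPM of Mertk. Fcgr1, which encodes CD64, was at 2.54, 2.42 and 2.59 CPM in members and 311, 234 and 198 CPM in macrophages. Summed over all members, Flt3 and Zbtb46 were thus present and Mertk and Fcgr1 were far below their macrophage levels. The sums do not hold for every member, since Zbtb46 stood at 11.1, 4.76 and 0 CPM in those with 20 or more Siglech UMIs. The limit on C1q in the gate selects against macrophages, so low Mertk and Fcgr1 were in part set by the choice. Timd4, which encodes the phosphatidylserine receptor TIM4 and marks a subset of thymic macrophages, was nevertheless present at 105, 124 and 86.05 CPM. The macrophages, not gated on Timd4 and only in part carrying it, had 209, 114 and 88.9 CPM, so the summed levels overlapped. Cx3cr1, the fractalkine receptor, stood at 139, 122 and 146 CPM. At 3000 UMIs, 15.6% ± 1.17 of members had Timd4 and 26.5% ± 1.05 had Cx3cr1, against 0.54% ± 0.78 and 0.71% ± 0.14 of B cells. Both were seen in 5.01% ± 0.45 of members. Before reduction, at a median of 18107 to 20527 UMIs, Timd4 was seen in 36.3% ± 6.01 and Cx3cr1 in 59.02% ± 4.41 of members.

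The comparison with Cd209a DCs asked how members differ from DCs that carry Cd209a and lack Cd209d. In edgeR's quasi-likelihood test on sums per library, with library as a block, 1742 of 12917 genes passed an adjusted p of 0.05 (13.5%). Of these, 905 were higher in members (7.01%) and 837 lower (6.48%). The count fell to 562 without Cd11cYFP replicate 1 and to 794 without Cd11cYFP replicate 2, and was 1032 without the library block. When the UMIs of each cell were divided at random into 2 sets of equal chance, with the gates on the first set and the test on the other, 1135 genes passed. Because the populations were gated on UMIs of these same cells, a gene that goes with Cd209d from cell to cell is part of what the gate selects.

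Among the genes named by size of the difference, several were near 0 in all other populations. Ngfr, the low-affinity nerve growth factor receptor, stood at 124, 95.1 and 95.5 CPM in members and 3.77, 6.62 and 4.01 CPM in Cd209a DCs (log2 fold change 4.29 ± 0.22 (SE), adjusted p = 5.8e-09). The MAFIA transgene also bears the name NGFR, and its part in the value of the MAFIA library was not tested. Pi16, a peptidase inhibitor, stood at 92.7, 45.4 and 38.9 against 0, 2.32 and 0.5 CPM (log2 fold change 5.37 ± 0.57 (SE), adjusted p = 1.4e-05). Rbp4, the retinol-binding protein, stood at 91.7, 35.8 and 40.002 against 0, 2.65 and 0 CPM (log2 fold change 5.30 ± 0.62 (SE), adjusted p = 6.0e-05). For these 3 genes the groups did not overlap, which the choice of genes by size and sign made likely. In Siglech cells each was at or under 2 CPM, below every member library. Timd4 was higher as well, at 105, 124 and 86.05 against 22.6, 6.28 and 5.01 CPM (log2 fold change 3.44 ± 0.31 (SE), adjusted p = 3.7e-06).

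Cd8a, a co-receptor chain of T cells and of some DCs, was at 87.4, 147 and 167 against 14.3, 2.65 and 3.01 CPM (log2 fold change 4.59 ± 0.39 (SE), adjusted p = 2.4e-06). Ptprf, a receptor tyrosine phosphatase, was at 104, 84.8 and 65.6 against 10.5, 1.65 and 2.004 CPM (log2 fold change 4.41 ± 0.39 (SE), adjusted p = 3.1e-06). Both also stood high in Siglech cells, at 217, 385 and 389.6 and 139, 121 and 161 CPM. They nonetheless passed the test when only members and Cd209a DCs with under 5 Siglech UMIs were compared (log2 fold change 6.07 ± 0.47, adjusted p = 3.7e-07 for Cd8a and 5.67 ± 0.43, adjusted p = 3.0e-07 for Ptprf), an alternative added after the data were seen. Fscn1, which bundles actin and is a gene of maturing DCs, was at 320.2, 145 and 198 against 15.1, 14.6 and 29.1 CPM (log2 fold change 3.38 ± 0.22 (SE), adjusted p = 1.9e-07). Jchain, the immunoglobulin joining chain, stood at 0.46, 4.85 and 486 CPM in members, so that 1 library decided its fitted difference (log2 fold change 5.80 ± 1.70 (SE), adjusted p = 0.032). Without Cd11cYFP replicate 2 that difference was 0.91, adjusted p = 0.86, and without Cd11cYFP replicate 1 it was 6.72, adjusted p = 0.11. It was 0.25, adjusted p = 0.97 without doublet-like cells and 0.40, adjusted p = 0.96 with at least 10 Cd209d UMIs. In Cd11cYFP replicate 2, 3 of 190 members had a Jchain UMI at 3000 UMIs per cell, and the 28 members just inside the Cd209d threshold had 3752 CPM.

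On the other side, Slfn1, a member of the Schlafen family, was at 23.3, 12.7 and 19.3 CPM in members and 179, 168 and 226 CPM in Cd209a DCs (log2 fold change -3.46 ± 0.27 (SE), adjusted p = 1.0e-06). Id2, a repressor of E proteins needed by type 1 DCs, was at 51.4, 38.2 and 67.1 against 319, 317 and 373 CPM (log2 fold change -2.66 ± 0.32 (SE), adjusted p = 4.1e-05). Thus Id2 was lower in the population in which Tcf4, an E protein, was higher (log2 fold change 2.38 ± 0.22 (SE), adjusted p = 3.8e-06), in 3 of 3 libraries for each gene. Axl, a receptor for apoptotic cells, was at 14.8, 10.3 and 6.91 against 109, 73.1 and 70.6 CPM (log2 fold change -3.00 ± 0.28 (SE), adjusted p = 3.7e-06). Ccl6, a chemokine, was at 4.38, 12.7 and 6.33 against 39.2, 110.1 and 56.1 CPM (log2 fold change -3.28 ± 0.39 (SE), adjusted p = 3.5e-05). Sirpb1a, Gpr141, Neurl3 and Bex6 were also lower, with log2 fold changes of -3.45 ± 0.39, -3.06 ± 0.34, -2.68 ± 0.22 and -2.67 ± 0.25 (SE). The groups did not overlap for Slfn1, Id2, Axl or Ccl6, which the choice of genes by size and sign made likely. How many of all genes tested did not overlap was not counted.

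Gene lists were read by their counts and median log2 fold changes, beside a median of 0.02 over all genes tested. Of 28 interferon-stimulated genes, 1 was higher in members (Bst2) and 26 were lower, with a median log2 fold change of -1.68. Ifit3, an interferon-induced inhibitor of viral RNA, stood at 60.9, 15.8 and 28.8 CPM in members and 206, 162 and 203 CPM in Cd209a DCs (log2 fold change -2.67 ± 0.28 (SE), adjusted p = 1.4e-05). Ifit1 (-2.45 ± 0.31), Ifit3b (-3.15 ± 0.33) and Oas2 (-2.87 ± 0.35, log2 fold change with SE) were lower as well. Bst2, or tetherin, was at 1649.8, 1026 and 669 against 1031, 383 and 601 CPM, and in Siglech cells it was at 4785, 3851 and 3669 CPM. The number of lower genes was 19 without Cd11cYFP replicate 1, 20 without Cd11cYFP replicate 2, 10 without the library block and 27 in cells with under 5 Siglech UMIs. Bst2 was not called without Cd11cYFP replicate 1. The list summed to 4321, 2220 and 1698 CPM in members and 6157, 3948 and 4917 CPM in Cd209a DCs. The sums were 4552, 2640 and 2829 CPM in Xcr1 DCs and 3649, 2101 and 2160 CPM in B cells. C1q macrophages, monocytes and Siglech cells lay above Cd209a DCs in each library. Against Xcr1 DCs, 6 of the 28 genes were higher in members and 16 lower.

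Of 8 plasmacytoid DC genes, 6 were higher in members and none lower, with a median log2 fold change of 2.06. The summed level of the list was 3589, 2543 and 1774 CPM in members, 1313, 338 and 376 CPM in Cd209a DCs and 11013, 11208 and 11153 CPM in Siglech cells. Siglech was at 681, 374 and 213 against 259.9, 33.7 and 46.6 CPM (log2 fold change 2.21 ± 0.44 (SE), adjusted p = 0.0039). Only 2 of the 8 were higher among cells with under 5 Siglech UMIs. In that comparison Tcf4 still was (log2 fold change 2.66 ± 0.13, adjusted p = 9.2e-10), as was Ccr9, a homing receptor for CCL25 (2.72 ± 0.45, adjusted p = 0.00054), while Klk1 was not (0.99 ± 1.36, adjusted p = 0.73). Irf8, a transcription factor of plasmacytoid and type 1 DCs, changed direction, from 1.38 ± 0.37 over all members to -0.97 ± 0.16, adjusted p = 0.00057 in cells with under 5 Siglech UMIs. Siglech (1.65, adjusted p = 0.13), Ccr9 (1.64, adjusted p = 0.06) and Irf8 (1.04, adjusted p = 0.32) were among those not called without Cd11cYFP replicate 1. In that fit 2 of the 8 were higher in members.

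The genes of oxysterol handling that surround the marker Cyp7b1 were mixed. Besides Cyp7b1 itself, 3 of the other 8 genes tested were higher in members and none was lower, with a median over the list of 0.30. Gpr183 was at 306, 422 and 382 CPM in members and 112, 218 and 251 CPM in Cd209a DCs (log2 fold change 0.96 ± 0.23 (SE), adjusted p = 0.009). Abca1, a cholesterol exporter, was at 22.4, 49.7 and 41.4 against 7.53, 19.2 and 17.5 CPM (log2 fold change 1.24 ± 0.26 (SE), adjusted p = 0.0037). Mylip, which degrades the LDL receptor, passed with 0.67 ± 0.21 (SE). The call was lost without Cd11cYFP replicate 1 for Gpr183 (1.02, adjusted p = 0.072), without Cd11cYFP replicate 2 for Abca1 (1.23, adjusted p = 0.068) and without any 1 of the 3 libraries for Mylip (adjusted p from 0.075 to 0.21). In the CD200 receptor family, Cd200r4, an activating relative of Cd200r1, was at 40.6, 18.8 and 18.7 against 1.51, 0.33 and 0.5 CPM (log2 fold change 5.19 ± 0.45 (SE), adjusted p = 2.4e-06). The ligand gene Cd200 was at 23.1, 22.4 and 32.5 against 14.3, 15.2 and 12.02 CPM (log2 fold change 0.95 ± 0.26 (SE), adjusted p = 0.023). Besides Cd200r1, 2 of the other 3 genes of this list were thus higher and none lower. The call for Cd200 was lost without Cd11cYFP replicate 1 (1.13, adjusted p = 0.058) and without Cd11cYFP replicate 2 (0.68, adjusted p = 0.25).

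Of 25 maturation genes, 7 were higher in members and 2 lower (median 0.24). Besides Fscn1, Samsn1 was higher at 236, 305 and 289.8 against 61.02, 107 and 117 CPM (log2 fold change 1.52 ± 0.14 (SE), adjusted p = 4.6e-06) and Serpinb6b, a protease inhibitor, with 2.23 ± 0.28 (SE). Cd80, a costimulatory ligand, was lower with -1.03 ± 0.20 (SE), and Cd83 did not pass (log2 fold change -0.61 ± 0.29 (SE), adjusted p = 0.19). The counts were 5 and 0 without Cd11cYFP replicate 1, 5 and 1 without Cd11cYFP replicate 2 and 6 and 4 without MAFIA replicate 2. Ccr7 itself was held at 1 UMI or less by the gate. Of 15 class II presentation genes, 2 were higher and 1 lower, with a median of -0.05, and none of the 3 calls was made without Cd11cYFP replicate 1. H2-Aa, for example, was at 10787, 12333 and 15451 against 9550.2, 12098 and 11831 CPM (log2 fold change 0.17 ± 0.17 (SE), adjusted p = 0.57). Of 24 costimulatory and checkpoint ligands, 1 was higher and 8 lower. Cd72, a ligand on B cells and DCs, was at 45.2, 34.5 and 36.5 against 152, 244 and 184 CPM (log2 fold change -2.30 ± 0.28 (SE), adjusted p = 4.1e-05).

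None of 18 chemokine ligands was higher in members and 5 were lower, with a median of -1.63. The lower genes numbered 8 without MAFIA replicate 2 and 3 without Cd11cYFP replicate 2. Cxcl16 was at 104, 64.8 and 103 CPM in members and 258, 468 and 389.7 CPM in Cd209a DCs (log2 fold change -2.00 ± 0.23 (SE), adjusted p = 2.4e-05). Cxcl9, a T cell attractant induced by interferon gamma, was at 75.8, 117 and 24.5 against 309.6, 367 and 79.6 CPM (log2 fold change -1.83 ± 0.31 (SE), adjusted p = 0.00075). Of 9 Fc receptor genes, 2 were higher and 3 lower. The inhibitory Fcgr2b was higher, at 204, 248 and 267 against 93.4, 107 and 98.7 CPM (log2 fold change 1.24 ± 0.15 (SE), adjusted p = 3.8e-05), and the activating Fcgr3 lower, at 5.99, 4.24 and 10.1 against 56.5, 38.04 and 25.05 CPM (log2 fold change -2.48 ± 0.28 (SE), adjusted p = 2.4e-05). Rxra, a nuclear receptor, was higher with 1.95 ± 0.25 (SE), as was Mrc1, the mannose receptor, with 1.53 ± 0.28. Sirpa was lower by a small margin, at 172, 158 and 123 against 209, 219.6 and 172 CPM (log2 fold change -0.45 ± 0.13 (SE), adjusted p = 0.031), and its call was lost without Cd11cYFP replicate 1 (-0.38, adjusted p = 0.22) or replicate 2 (-0.45, adjusted p = 0.15).

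The remaining lists moved in both directions. There were 4 higher and 5 lower of 20 other C-type lectins, 2 higher and 5 lower of 28 genes of the interleukin 4 and 13 axis, 4 higher and 6 lower of 26 DC core genes and 5 higher and 4 lower of 25 type 2 DC genes. There were 5 higher and 8 lower of 22 type 1 DC genes, 7 higher and 6 lower of 34 macrophage core genes, 3 higher and 6 lower of 21 monocyte genes and 5 higher and 7 lower of 39 DC transcription factors. Receptors gave 4 higher and 3 lower of 18 chemokine receptors, 5 higher and 6 lower of 23 apoptotic cell receptors, 5 higher and 4 lower of 19 Toll-like receptors and 6 higher and 8 lower of 35 growth factor and cytokine receptors. Without Cd11cYFP replicate 1 the calls were 1 higher and 1 lower for Toll-like receptors, 1 and 3 for other C-type lectins and for apoptotic cell receptors, 2 and 1 for chemokine receptors, 2 and 2 for DC core genes, 2 and 4 for type 1 DC genes, 3 and 3 for type 2 DC genes, 3 and 2 for growth factor and cytokine receptors, 3 and 5 for DC transcription factors, 5 and 3 for macrophage core genes and 1 and 5 for monocyte genes. Without MAFIA replicate 2 they were 5 and 5 for the interleukin 4 and 13 axis, 8 and 8 for DC transcription factors and 6 and 7 for type 2 DC genes. Without Cd11cYFP replicate 2 they were 2 and 4 for other C-type lectins, 3 and 5 for type 1 DC genes and 5 and 2 for Toll-like receptors. Among the genes of these lists Il7r, the interleukin 7 receptor, was at 117, 136 and 83.5 against 55.7, 15.9 and 21.04 CPM (log2 fold change 1.99 ± 0.38 (SE), adjusted p = 0.0021). Il4ra, the interleukin 4 receptor, was at 17.98, 23.6 and 11.8 against 30.1, 55.6 and 36.1 CPM (log2 fold change -1.28 ± 0.26 (SE), adjusted p = 0.003). Cd4, a gene of some type 2 and plasmacytoid DCs, was at 101, 81.8 and 40.3 against 30.9, 14.2 and 6.01 CPM (log2 fold change 2.16 ± 0.30 (SE), adjusted p = 0.00016). The call for Il7r was lost without Cd11cYFP replicate 1 (1.46, adjusted p = 0.092), and that for Il4ra without Cd11cYFP replicate 1 (-1.18, adjusted p = 0.075) or replicate 2 (-1.13, adjusted p = 0.054).

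**Figure D5:**
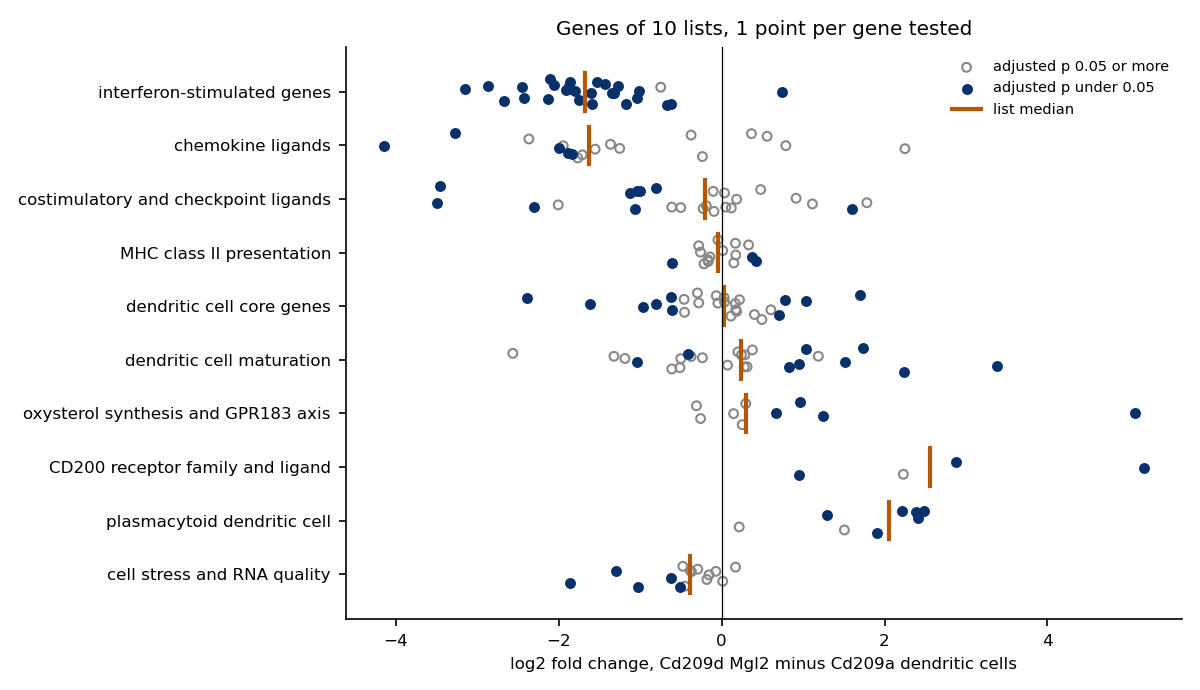
Log2 fold change of members against Cd209a DCs for the genes of 10 lists, 1 point per gene tested, filled where the adjusted p was under 0.05. The line is the list median. The interferon-stimulated genes lie left of 0 except for Bst2, and the plasmacytoid genes lie to its right.

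Markers of other cell types and signs of handling were set beside these differences. The 10 B cell genes summed to 601, 520 and 3208 CPM in members and 383, 311 and 243 CPM in Cd209a DCs, the highest value being in the library with the Jchain excess. Cd79a was detected in 1.43% ± 1.105 of members at 3000 UMIs against 94.4% ± 1.87 of B cells, and Cd3e in 1.03% ± 0.45. Of 15 genes of cell stress and RNA quality, none was higher in members and 5 were lower (median -0.39). The lower genes numbered 10 without MAFIA replicate 2 and 1 without Cd11cYFP replicate 1. Fos was at 91.7, 1050.1 and 1163 CPM in members, with the MAFIA library far below the others, as in Cd209a DCs (72.3, 1345 and 1408 CPM). The part of these genes in the differences was not tested. Against Cd209a DCs, 2 of 10 B cell genes and 1 of 11 T cell genes passed as higher and none as lower, and no such call was made without Cd11cYFP replicate 1 or without replicate 2. No list gene of fibroblasts and epithelium or of neutrophils, mast cells and basophils passed the test, and these lists summed to at most 229 CPM in members.

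Reporter RNA was counted as well. YFP stood at 604 and 294 CPM in the members of the 2 Cd11cYFP libraries and at 2071 and 864 CPM in their Cd209a DCs. EGFP was at 1.15 CPM in the MAFIA members and did not exceed 5.42 CPM in any MAFIA population. The endogenous Itgax was at 156, 193 and 182 CPM in members and 245, 263 and 284 CPM in Cd209a DCs (log2 fold change -0.60 ± 0.15 (SE), adjusted p = 0.012), a call lost without Cd11cYFP replicate 1 (-0.64, adjusted p = 0.15). Csf1r was at 141, 129.7 and 125 against 166, 152 and 134 CPM (log2 fold change -0.23 ± 0.30 (SE), adjusted p = 0.7). A test of whether the difference from Cd209a DCs itself differed between the MAFIA library and the Cd11cYFP libraries called 0 of 12917 genes in edgeR, with a lowest adjusted p of 0.059 and 808 genes at an unadjusted p under 0.05. No other tool was run for it. The MAFIA side was 1 library, assumed to vary like the others, and reporter, sex and age cannot be told apart in it.

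Against C1q macrophages, the question was how far a DC with Timd4 and Cx3cr1 resembles macrophages, of which only a part carry these genes. The macrophage gate used neither gene. At 3000 UMIs, Timd4 was seen in 36.4, 19.9 and 16.7% and Cx3cr1 in 33.3, 42.7 and 63.4% of C1q macrophages. Of 12918 genes, 3180 were higher in members (24.6%) and 3374 lower (26.1%), together 50.7%. The gates held C1q under 30 UMIs in members and at 100 or more in the comparator. A difference in genes that go with C1q was thus part of the choice. Of 34 macrophage core genes, none was higher and 32 were lower, with a median log2 fold change of -5.33. The difference was -7.20 ± 0.38 for Mertk and -8.85 ± 0.78 (SE) for Gpnmb, a lysosomal glycoprotein gene. Timd4 did not pass (log2 fold change -0.26 ± 0.22 (SE), adjusted p = 0.34), with levels of 105, 124 and 86.05 against 209, 114 and 88.9 CPM. Cx3cr1 was lower in members, at 139, 122 and 146 against 251, 326 and 549 CPM (log2 fold change -1.39 ± 0.25 (SE), adjusted p = 0.00022).

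Of 26 DC core genes, 22 were higher in members than in macrophages and 1 was lower (median 1.64). Flt3 was at 148, 164 and 196 against 4.21, 5.903 and 4.38 CPM (log2 fold change 5.16 ± 0.26 (SE), adjusted p = 1.0e-10), and Zbtb46 at 68.9, 67.3 and 67.6 against 4.51, 3.94 and 4.38 CPM (log2 fold change 4.03 ± 0.14 (SE), adjusted p = 1.8e-12). Bcl11a, a transcription factor of plasmacytoid DCs and B cells, was at 489, 435 and 384 against 9.72, 8.57 and 8.44 CPM (log2 fold change 5.64 ± 0.20 (SE), adjusted p = 1.8e-12). Class II presentation genes gave 11 higher and 1 lower of 15. H2-DMb2, a peptide-exchange factor, was at 412, 475 and 509.7 against 39.04, 40.4 and 39.98 CPM (log2 fold change 3.58 ± 0.12 (SE), adjusted p = 1.5e-12). None of 18 chemokine ligands was higher and 15 were lower (1 or 2 higher and 13 or 15 lower with 1 library left out), among them Ccl8 at 1.38, 1.82 and 0.29 against 453, 463 and 208 CPM (log2 fold change -8.42 ± 0.25 (SE), adjusted p = 2.5e-13). Of 23 apoptotic cell receptors, 5 were higher and 14 lower, and of 28 interferon-stimulated genes, 0 were higher and 25 lower.

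Cd209 genes set the populations apart in both directions. Cd209f stood at 8.49, 6.54 and 11.9 CPM in macrophages and had no UMI in the members, which allows up to 0.69, 1.82 and 0.86 CPM for a count of 0. In oxysterol handling, Nr1h3, the LXR alpha nuclear receptor, was at 12.4, 4.24 and 4.03 CPM in members against 252, 166 and 130.1 CPM in macrophages (log2 fold change -4.72 ± 0.24 (SE), adjusted p = 1.4e-10). Abca1 was at 22.4, 49.7 and 41.4 against 376, 478 and 516 CPM (log2 fold change -3.62 ± 0.20 (SE), adjusted p = 3.9e-10). Besides Cyp7b1, the list gave 1 higher (Gpr183) and 5 lower of the other 8.

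Xcr1 DCs were the third comparator, and the contrast asked how members differ from type 1 DCs. In all, 2758 of 12918 genes were higher in members (21.4%) and 2638 lower (20.4%), together 41.8%. Without TMM scaling the split was 4013 higher and 1567 lower, and the median log2 fold change over all genes was 0.23 in place of 0.02. Of 22 type 1 DC genes, none was higher and 21 were lower, with a median of -4.22. Gcsam was at 0, 0 and 0.29 against 81.5, 95.1 and 77.4 CPM, Cd207, or langerin, at 1.61, 0.61 and 0.86 against 412, 69.4 and 197 CPM (log2 fold change -7.98 ± 0.43 (SE), adjusted p = 5.0e-10) and Rab7b at 3.46, 3.03 and 2.88 against 369, 394 and 368 CPM (log2 fold change -7.08 ± 0.27 (SE), adjusted p = 1.3e-11). Of 26 type 2 DC genes, 19 were higher and 1 lower (median 2.95). Sirpa was at 172, 158 and 123 against 7.04, 7.67 and 4.58 CPM (log2 fold change 4.36 ± 0.15 (SE), adjusted p = 3.3e-12), and Irf4 at 103, 136 and 136 against 1.04, 1.97 and 2.84 CPM (log2 fold change 5.75 ± 0.26 (SE), adjusted p = 7.7e-11). The gates set Xcr1 to 0 in members and to at least 5 UMIs in the comparator, so a difference in genes that go with Xcr1 was part of the choice. The type 2 list was not particular to members, with sums of 6170.3, 6402 and 6285 CPM in members, 6425, 5981 and 6582 CPM in Cd209a DCs, 5681, 5835 and 5849 CPM in C1q macrophages and 6164, 5724 and 6049 CPM in monocytes, against 632, 951 and 1086 CPM in Xcr1 DCs.

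Other lists separated the members from Xcr1 DCs too. All 8 plasmacytoid genes were higher, with Tcf4 at 1369.7, 1281 and 1102 against 58.5, 55.3 and 73.3 CPM (log2 fold change 4.11 ± 0.23 (SE), adjusted p = 8.0e-10), and the 3 genes tested of the CD200 receptor list besides Cd200r1 were all higher. Cd200r1 itself was at 1.93, 2.63 and 2.58 CPM in Xcr1 DCs. Of 34 macrophage core genes, 20 were higher in members and 2 lower, Timd4 among the higher at 105, 124 and 86.05 against 2.67, 2.41 and 1.201 CPM (log2 fold change 5.51 ± 0.28 (SE), adjusted p = 2.3e-10). Of 28 genes of the interleukin 4 and 13 axis, 18 were higher and 1 lower (median 1.15). Toll-like receptors did not move as a set, with 5 higher and 6 lower of 19 (4 and 3 without Cd11cYFP replicate 2). Over all genes tested, 21.4% were higher and 20.4% lower. Tlr3, which senses double-stranded RNA, was at 0.92, 0 and 0.86 against 46.4, 123 and 87.6 CPM (log2 fold change -6.99 ± 0.49 (SE), adjusted p = 9.4e-09), while Tlr7, which senses single-stranded RNA, was at 30.9, 19.4 and 6.33 against 1.48, 0.88 and 0.64 CPM (log2 fold change 4.02 ± 0.32 (SE), adjusted p = 4.3e-08), a call lost in members with under 5 Siglech UMIs (0.80, adjusted p = 0.21). Cst3, a cystatin, was at 3549, 3685 and 5363 against 32554, 24803 and 25593 CPM (log2 fold change -2.96 ± 0.16 (SE), adjusted p = 3.6e-10).

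The genes most like Cd209d were sought over the 18 sums of 6 populations and 3 libraries, by the Pearson correlation of log2(CPM + 1). The 10 highest were Myrip, Podn, Fkbp10, Efna5, Lhfp, Gm14161, Rbp4, Fat3, Pcdh1 and Arhgef17, with correlations from 0.97 to 0.996. The sums share libraries and gates, and Cd209d was 0 in all but the member sums by construction, so this order favours genes near 0 elsewhere. Most were rare. Podn, which encodes a matrix proteoglycan, was at 11.99, 9.695 and 10.4 CPM in members, and Efna5, an ephrin, at 11.3, 11.5 and 10.4 CPM. Rbp4 was the most abundant of them beside the non-coding Gm14161, at 55.6, 52.1 and 44.6 CPM.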

How the data were processed

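Single thymic cells of 4 libraries were sequenced on a droplet platform. The deposited matrices hold unnormalized UMI counts for each gene in each barcode, which the authors made with Cell Ranger. Per the labels, bcl2fastq 2.20 and STAR 2.7.9a were used with GRCm39, while the published methods name mm10, so the build behind the counts is uncertain. Coordinates are from the GRCm39 annotation in use here and promoters from RefSeq on GRCm38.p6.

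The kept libraries held 126700210 to 185882793 UMIs, and 29042 of 29271 barcodes in the 4 libraries passed the filters. The members, gates and gene lists were chosen with earlier results of these data known. Cells were gated by raw UMIs and counts summed per library and population, giving 18 sums of 6 populations. Sums were tested in edgeR 4.0.16 (quasi-likelihood F test, TMM scaling, filterByExpr, library as a block, 10 residual degrees of freedom) in R 4.3.3 with Benjamini-Hochberg adjustment over all genes of a comparison. The test and script were checked on simulated counts. The library pairs the sums because every population came from the same droplets. The study's methods name 1 mouse for each of 3 samples, and the labels do not tie libraries to mice. The p-values weigh a difference against the spread left after the library block, estimated per gene over all 6 populations of 3 libraries. SE is the log2 fold change divided by the square root of F. Gate genes and reporters were left out of the tests.

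Genes named are the gate genes, given markers and lineage markers, whether or not they passed a test, and genes chosen by size of the difference. The latter are up to 4 per list with the largest absolute log2 fold change, and the 10 (Cd209a DCs) or 5 (others) largest in each direction. Those chosen by size passed an adjusted p of 0.05 with the same sign in 3 of 3 libraries. The largest in each direction also had a mean of at least 50 normalized CPM, with predicted genes left out. Of these the text gives a part. Bst2, Cd80, Cd83, Csf1r, Fos, Ly6c2, Nr1h3, Cd209f, Clec9a and the genes shown against Siglech were chosen after their values were seen, as were the Siglech cells. Detection shares were taken after reducing each cell to 3000 UMIs. Doublet-like cells (highest score against simulated doublets, 0.8% of cells per 1000 barcodes) stayed in and were removed in an alternative. DESeq2 1.42.0, other gates, count splitting and left-out libraries were alternatives. MAFIA replicate 1 was not used in comparisons.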

Additional observations from a re-analysis of the deposited data

How the results depend on the processing

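With edgeR's quasi-likelihood test against Cd209a dendritic cells, 1742 genes passed, and the count moved by over 1.5 times under 3 kinds of alternative. It was 1032 with no replicate block (587 higher and 445 lower), 1135 with the gate on a random part of the UMIs and the test on the rest, and 562 to 1609 when 1 library was left out (lowest without Cd11cYFP replicate 1). The cause of the drop with no block was not tested. Leaving out a library also removes samples from the fit. The counts against C1q macrophages and Xcr1 dendritic cells stayed within 1.5 times under every alternative run, with 5003 to 6098 and 3733 to 4667 when 1 library was left out and 5313 and 4065 with no block. DESeq2 called 1843, 6449 and 5340 genes in the 3 comparisons. The share of members ran from 1.62 to 2.63% over the alternative gates.

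Of the named genes that passed, 50 of 93 kept direction and call under every alternative against Cd209a dendritic cells, 87 of 100 against C1q macrophages and 83 of 98 against Xcr1 dendritic cells. The direction turned for Jchain against Cd209a dendritic cells after reduction to 5000 UMIs (-0.087) and for Pax5 against macrophages without doublet-like cells (0.038). An alternative added after the data were seen kept only members and Cd209a dendritic cells with under 5 Siglech UMIs. The direction then turned for Irf8 against Cd209a dendritic cells (-0.97). It also turned for Dntt (-0.51), Klk1 (-0.48) and Clec9a (-0.13) against macrophages and for Klk1 against Xcr1 dendritic cells (-0.67). Macrophages and Xcr1 dendritic cells had no Siglech limit, so in those comparisons cells with Siglech were left out on the member side only. Leaving out cells that met 2 gates, also added later, turned no direction, and 1563 genes then passed against Cd209a dendritic cells. Detection shares rise with depth. The share of members with a Timd4 UMI was 21.4% at 5000 UMIs and 36.3% without reduction. With 84 members in the smallest library, genes under about 5 CPM rest on few UMIs.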
